A study of Caenorhabditis elegans with 10 samples.

Results

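Transcript levels were described in whole young adult Caenorhabditis elegans of the wild-type strain N2 (Bristol), a small nematode, on 5 of the 10 arrays of the study. The 5 arrays were chosen by their label as wild type, 1 array for each of 5 numbered biological replicates, and the other 5 arrays, of gas-1(fc21) mutant worms, were not used for any level below. Worms were grown on OP50, an E. coli food strain, and synchronised by bleaching, an automated sorter gated on size then gave 1000 living adults for each replicate, and total RNA was extracted from aliquots of 500 to 1000 worms. The study compared the mutant with this wild type to find metabolic pathways affected by a defect of the mitochondrial electron transport chain, and the levels below describe its baseline. Without its 77 Affymetrix control probe sets the array gave 22548 probe sets, and 17118 genes had a probe set that named no other gene.

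A young adult hermaphrodite has finished its last moult, has switched its germ line from sperm to oocytes, and has begun to load yolk into growing oocytes. The intestine makes the yolk proteins, the hypodermis lays down the collagens of the cuticle, and the gonad holds a large share of the cells that divide. RNA from whole worms mixes all of these tissues, so fewer cells of a type and less RNA per cell cannot be told apart.

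Values are log2 intensities as deposited, and a difference of 1 is a 2-fold difference. Probe sets differ in how well they bind, so a brighter probe set is not by itself a more abundant transcript, and an order between genes is an order of signal. Each gene was read on its brightest probe set. Each array carried 27 probe sets for genes of the bacterium Bacillus subtilis, and the 90th percentile of these controls, between 5.89 and 6.38 on the 5 arrays, served as the level to exceed. The sources used here do not say whether bacterial control RNAs had been added, so that level is not a measured background. It is a conservative mark for a call of brighter but not for a call of dimmer. The median of the controls was lower, between 4.43 and 5.25 on the 5 arrays, so a gene called dimmer can still exceed the typical control. The hybridisation spike-ins increased in the order bioB, bioC, bioD and cre, with means of 8.04, 9.37, 10.84 and 12.58 over the 5 arrays. The array medians were between 6.22 and 6.61. The signal at the 3′ end minus that at the 5′ end of the actin control was 0.19, 0.16, 0.22, 0.19 and 0.36 on replicates 1 to 5, highest on replicate 5. For catalase it was 1.43, 1.40, 1.61, 1.46 and 1.31 and for ubiquitin 0.64, 0.65, 0.69, 0.67 and 0.62, both lowest on replicate 5, and for GAPDH it was between -0.12 and -0.03.

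Replicates 2, 3 and 4 resembled each other more than they resembled replicates 1 and 5. Across probe sets, which are not independent of each other, Pearson's r was 0.995 to 0.996 among replicates 2 to 4, 0.972 to 0.974 between replicate 1 and these, 0.978 to 0.979 between replicate 5 and these, and 0.954 between replicates 1 and 5. No array was a copy of another, since every pair had different values for at least 99.7% of probe sets. The labels call the samples biological replicates without naming separate cultures. The p-values below therefore measure the spread between these samples, which may in part be technical. Each array's control level was subtracted before the test, so that spread also includes the controls' own variation between arrays, which all genes share. Replicate 5 is described apart.

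At the control level chosen, about as many genes were brighter than the bacterial controls as were not. By limma, with p-values adjusted over all probe sets, 8632 of the 17118 genes (50.4%) were brighter than the controls, 6268 (36.6%) were dimmer and 2218 were not separated from them at an adjusted p under 0.05. Over probe sets 50.8% were brighter and 36.5% dimmer. These shares depend on the level chosen. Of the 22548 probe sets, 17834 were brighter than the median of the controls and 7589 brighter than the highest control. The median gene had a mean of 6.36, the quartiles were 5.26 and 8.76, and 2127 genes (12.4%) reached 10 or more. Of the 16170 genes annotated as protein-coding 52.4% were brighter than the controls, against 14.5% of the 871 annotated pseudogenes. Genes known only by a sequence name were brighter in 42.7% of 6717 cases and genes with a symbol in 55.4% of 10401. A gene that was not brighter may still be transcribed in a few cells or at a low level.

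**Figure D1:**
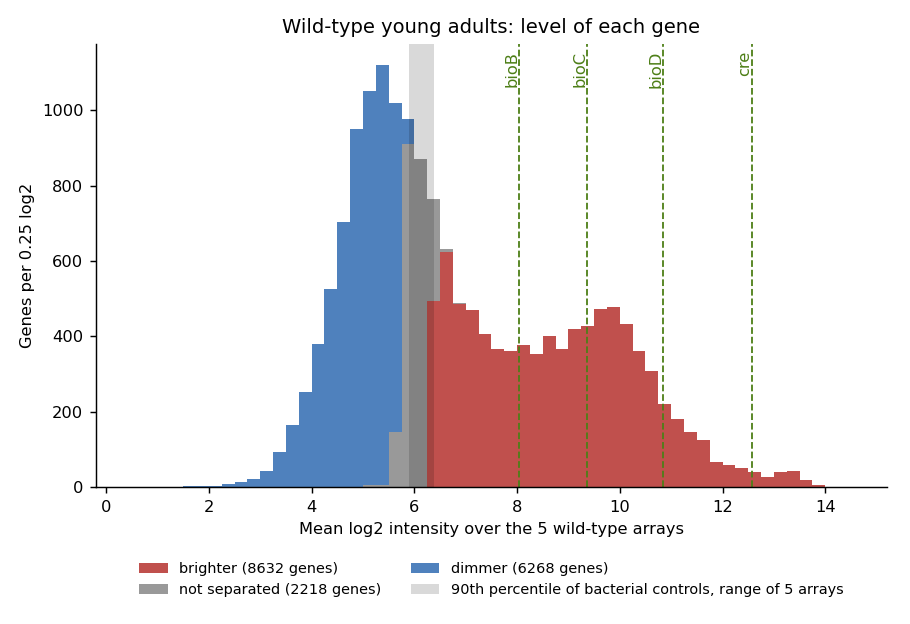
Histogram of the mean log2 intensity of 17118 genes over the 5 wild-type arrays (horizontal axis) against genes per 0.25 log2 (vertical axis), coloured by call against the bacterial controls, with the range of the control level over the arrays shaded and the mean of each spike-in dashed. A broad second hump of genes lies above the control level, near a log2 intensity of 10, and 2127 genes reach 10 or more.

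The brightest signals came from the cuticle, the ribosome and yolk. Of the 30 brightest genes, with means between 13.44 and 13.96, 15 encode ribosomal proteins, 9 encode cuticle collagens and 3 encode vitellogenins, the yolk proteins secreted by the intestine. The remaining 3 were eef-1A.1, the elongation factor that brings amino-acylated tRNA to the ribosome, sip-1, which belongs to the small heat shock proteins, and asp-1, an aspartyl protease of the intestine. Within the 100 brightest, 63 were ribosomal proteins and 16 collagens. The 500 brightest held 74 ribosomal proteins, 37 collagens, 18 major sperm proteins and 15 proteasome subunits. They also held 17 nuclear genes of ATP synthase and respiratory complexes II to IV. Of the 30 probe sets, 23 have a suffix for probes shared with similar transcripts, and only 10 of the 30 genes remained among the brightest 30 when such probe sets were left out.

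The brightest gene was col-93, a cuticle collagen, at 14.003, 14.12, 14.05, 14.05 and 13.57 on replicates 1 to 5 (mean 13.96 ± 0.22, SD, n = 5). Replicate 5 was the lowest and the other arrays lay close together. The collagen sqt-3, which shapes the body through the cuticle, was at 14.03, 13.95, 14.02, 14.03 and 13.74, with the same array lowest. The vitellogenin vit-4 was at 13.79, 13.80, 13.83, 13.84 and 14.07, with replicate 5 the highest. The ribosomal protein gene rpl-8 was at 13.66, 13.65, 13.64, 13.64 and 13.62, with no array apart. The elongation factor gene eef-1A.1 was at 13.51, 13.54, 13.54, 13.52 and 13.63, and sip-1 at 13.41, 13.37, 13.42, 13.38 and 13.72, both highest on replicate 5. The protease gene asp-1 was at 13.48, 13.50, 13.49, 13.48 and 13.29, lowest on replicate 5. Each of the 30 exceeded the controls, rpl-8 by 7.61 on the log2 scale (SE 0.11, limma adjusted p = 1.5e-11). The highest single value of any probe set was 14.07 to 14.12 on each array, close above the brightest means, so the order near the top is not resolved.

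Genes of the protein-making and protein-removing machinery were bright and varied little. Cytosolic ribosomal proteins had a median of 13.29, and 74 of 75 were brighter than the controls. The exception, rpl-42, was at 6.25, 5.74, 6.02, 5.83 and 5.67 on replicates 1 to 5, on a single probe set, and was not separated from the controls (difference -0.13, SE 0.10, limma adjusted p = 0.228). The other 74 ribosomal protein genes stood far above it. The 60 measured mitochondrial ribosomal proteins were lower, with a median of 9.87 and 57 brighter than the controls, and the brightest was mrpl-51 at 11.21. All 33 measured proteasome subunits were brighter, with a median of 11.40 and a range of 8.10 for rpn-6.2 to 11.95 for pas-4, a subunit of the proteasome's core. All 11 RNA polymerase II subunits (median 10.94), all 6 elongation factors (12.71) and all 31 initiation factors (10.34) were brighter too. The brightest initiation factor was iff-1 at 13.20, an eIF5A of the germ line, and the dimmest was ife-4 at 6.67, a cap-binding protein. Among chaperones 60 of 65 were brighter, led by hsp-90 at 12.93, hsp-1 at 12.88 and the calreticulin crt-1 at 12.36. The heat-inducible small heat shock gene hsp-16.21 was the dimmest, at 4.39.

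Genes of the mitochondrial respiratory chain and of glycolysis were bright as groups. Subunits encoded in the mitochondrial genome were counted as a list of their own. All 32 measured nuclear subunits of complex I, the NADH dehydrogenase, were brighter than the controls. Their median was 11.07, with a narrow range from 10.03 for ndua-8 to 11.77 for ndub-6. Of the nuclear ATP synthase and complex II to IV genes 35 of 36 were brighter (median 11.33). They were led by the ATP synthase subunits atp-1 at 12.71 and atp-2 at 12.66 and the cytochrome c gene cyc-2.1 at 12.67. The assembly factor gene cox-10 was not separated at 6.04. All 8 measured genes of the mitochondrial genome were brighter, with a median of 12.15. COX1, which encodes a core subunit of cytochrome oxidase, was at 12.77, 12.71, 12.79, 12.77 and 12.81 on replicates 1 to 5. ND5, a complex I subunit of the same genome, was at 6.23, 6.38, 6.84, 6.56 and 6.58, and exceeded the controls by 0.49 (SE 0.15, limma adjusted p = 0.0099). These 2 probe sets differ by more than 6 on the log2 scale, and differences in probe binding and in RNA level cannot be told apart here. Of 16 glycolytic enzymes 15 were brighter (median 10.57), led by the aldolase aldo-2 at 12.67 and the glyceraldehyde-phosphate dehydrogenases gpd-3 at 12.50 and gpd-2 at 12.48, and the phosphofructokinase gene pfk-1.2 was dimmer at 5.48.

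Paralogs of the cytoskeleton and chromatin differed widely in signal. Of 13 tubulins 9 were brighter and 4 dimmer than the controls. The beta-tubulin tbb-1 was at 12.68, 12.70, 12.66, 12.64 and 12.68 on replicates 1 to 5, and tba-2 and tbb-2 averaged 12.64 and 12.61. The alpha-tubulin tba-6, known from ciliated neurons, was at 5.32, 5.06, 5.32, 5.20 and 5.41. Every array was far higher for tbb-1 than for tba-6. Of 35 histone genes 31 were brighter (median 10.18), with hil-5, a linker histone, at 12.55, the variant H2A gene htz-1 at 12.18 and the variant H3 gene his-72 at 12.16, and his-73 was the dimmest at 4.37. Of 24 myosin, paramyosin and troponin genes 21 were brighter (median 10.00), and of 44 small GTPases, switches of transport and signalling, 35 were brighter (median 8.64). The tubulin list depended on shared probes, since its median was above that of all genes with all probe sets and below it without those that can share probes.

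Tissue lists differed widely in signal, from intestine and oocytes at the top to neurons, pharynx and early embryos, with medians near that of all genes. These lists name genes chosen as markers and not a share of cells. Of 25 measured intestine markers 24 were brighter than the controls, with a median of 11.86 against 6.36 for all genes. The list includes the vitellogenins and the proteases asp-1 and cpl-1, which are also counted with their families. The metallothionein gene mtl-2, which binds metals in intestinal cells, was at 13.13, 13.17, 13.19, 13.23 and 12.25 on replicates 1 to 5, and act-5, the actin of the intestinal brush border, was at 11.98, 11.88, 11.91, 11.98 and 11.20. Replicate 5 was the lowest for both. The GATA factor elt-2, which specifies the intestine, was at 7.23, 7.04, 6.82, 6.92 and 6.35, above the controls by 0.84 (SE 0.12, limma adjusted p = 7e-05). The intestine marker that was not separated from the controls was mtl-1, the other metallothionein, at 5.90, 6.25, 6.11, 6.32 and 8.20 (adjusted p = 0.148). Replicate 5 alone was high for mtl-1, while it was the lowest for mtl-2.

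The intestine also secretes digestive and defence proteins, and families of these kinds were bright in part. The lipid, methionine cycle and antioxidant families given after them were not assigned to a tissue. Of 26 cathepsins and aspartyl proteases 20 were brighter (median 10.49), with asp-1 at 13.45, the cathepsin L gene cpl-1 at 12.86 and asp-6 at 12.68, and asp-11 the dimmest at 4.39. Lysozymes and saposins, which attack bacterial walls and membranes, were brighter in 18 of 34 genes (52.9%), close to the 50.4% of all genes. They were led by ilys-5 at 13.12 and spp-14 at 11.91, and spp-6 was the dimmest at 3.56. Of 17 fatty acid and retinol binding proteins 14 were brighter, with far-2 at 13.22 and lbp-9 at 12.51. Of 15 desaturases and elongases, which build unsaturated and long-chain fatty acids, 12 were brighter (median 11.02), led by elo-1, elo-5 at 11.78 and fat-2 at 11.74. Among the methionine cycle and phospholipid methylation enzymes 12 of 14 were brighter, led by the S-adenosylhomocysteine hydrolase gene ahcy-1 at 12.80 and the methyltransferase gene pmt-2 at 12.28. Among antioxidant enzymes 16 of 24 were brighter, led by the peroxiredoxin prdx-2 at 12.35 and the superoxide dismutases sod-1 at 11.70 and sod-2 at 11.18, while trx-1, a thioredoxin of sensory neurons, was the dimmest at 4.18.

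All 5 measured vitellogenins were bright, between 12.94 for vit-1 and 13.87 for vit-4. Their mean over genes was 13.36, 13.37, 13.39, 13.38 and 13.64 on replicates 1 to 5, and replicate 5 was the highest for 5 of 5 genes. The probe sets of vit-4, vit-5 and vit-6 carry the suffix for shared probes, so their levels cannot be separated fully from those of similar genes.

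Oocyte and germ line genes were bright throughout. All 30 measured oocyte and eggshell markers were brighter than the controls, with a median of 11.56 and a lowest value of 9.60 for the caveolin gene cav-1. The eggshell proteoglycan gene cpg-1 was at 13.19, 13.17, 13.18, 13.17 and 13.38 on replicates 1 to 5, and the yolk receptor gene rme-2 was at 12.36, 12.40, 12.34, 12.36 and 12.63. Replicate 5 was the highest for both, and for 28 of the 30 genes. Their mean over genes was 11.57, 11.60, 11.56, 11.57 and 11.83. All 34 germ line and meiosis markers were brighter too, with a median of 10.01 and a range from 8.59 for mes-2, a Polycomb-type histone methyltransferase, to 11.73 for daz-1, an RNA-binding protein of oogenesis. The translational repressor gld-1, which guides germ cells through meiosis, was at 11.52, 11.53, 11.56, 11.56 and 11.37. The mean of the germ line list was 10.05, 10.05, 10.06, 10.06 and 10.10, nearly level over the arrays.

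Genes of sperm were bright for the structural proteins, while a list of other sperm markers had a median near that of all genes. All 23 measured major sperm proteins, the cytoskeletal proteins that move nematode sperm and signal to oocytes, were brighter than the controls, with a median of 11.86. They are near-identical copies read on probe sets that share probes, and the array does not separate their levels. The list of sperm and spermatogenesis markers was lower, with 14 of 24 brighter (58.3%, against 50.4% of all genes), 8 dimmer and a median of 6.63. The sperm-specific family gene ssp-10 led it at 10.39, then spe-39 at 10.31 and the RNA-binding protein gene cpb-1 at 10.11. The protease gene try-5, known from the seminal fluid of males, was the lowest, at 4.47, 4.47, 4.01, 4.04 and 4.22 on replicates 1 to 5, dimmer than the controls (log2 difference -1.79, SE 0.11, limma adjusted p = 9.78e-08). All 5 arrays lay below their control level for it.

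Most markers that embryos switch on for themselves were not brighter than the controls. Of 18 such genes 6 were brighter, 8 dimmer and 4 not separated, with a median of 5.75. The brightest, pal-1, at 11.06, 11.02, 11.05, 11.03 and 11.21, encodes a Caudal-type homeobox protein whose RNA the mother also supplies to the egg. The GATA factor med-1, which specifies early mesendoderm, was the dimmest at 2.56, 3.80, 3.02, 3.86 and 4.10. Moult and larval markers had a median of 6.71 with 15 of 22 brighter, led by the collagens col-49 at 11.43 and col-63 at 10.76.

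Body wall muscle was bright, and neuron markers lay nearer the control level, a little above the median of all genes. Of 23 muscle markers 21 were brighter than the controls, with a median of 10.92, led by the myosin light chain mlc-2 at 12.92, the troponin C gene pat-10 at 12.77 and the actin act-4 at 12.26. The myosin heavy chain gene unc-54 was at 11.22, 11.17, 11.25, 11.21 and 10.19 on replicates 1 to 5. The MyoD-type factor hlh-1 was dimmer than the controls at 4.68. Of 30 neuron markers 19 were brighter (63.3%, against 50.4% of all genes), 9 dimmer and 2 not separated. Their median was 6.83, against 6.36 for all genes. The synaptobrevin gene snb-1, which encodes a protein of synaptic vesicles, was the brightest at 10.83, 10.93, 10.73, 10.85 and 11.04. The vesicular GABA transporter gene unc-47, used by a small set of neurons, was the dimmest at 4.03, 4.71, 5.12, 5.19 and 4.79. Of 18 pharynx markers 10 were brighter (55.6%, median 6.65). They were led by the lysozyme lys-8 at 11.07, which intestine also expresses, and the pharyngeal muscle genes tni-4 at 8.44 and tnc-2 at 7.89. Of 17 markers of the somatic gonad, coelomocytes and excretory system 11 were brighter (median 6.85), led by the innexin of the gonadal sheath inx-8 at 10.54 and the filamin fln-1 at 10.35.

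**Figure D2:**
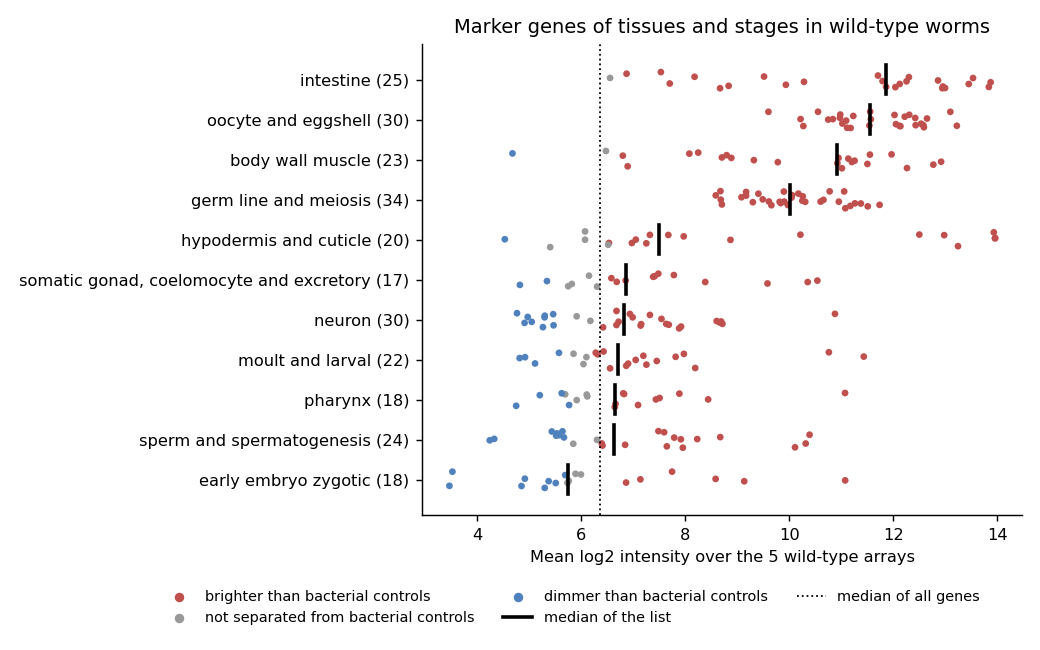
Mean log2 intensity over the 5 wild-type arrays (horizontal axis) of each measured marker gene, 1 point per gene, for 11 lists (rows, with the number of genes measured), coloured by call against the bacterial controls, with the list's median as a bar and the median of all genes, 6.36, as a dotted line. Intestine and oocyte lists have the highest medians, 11.86 and 11.56, and the early embryo list the lowest, 5.75.

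Cuticle collagens spanned almost the whole scale. Of 146 measured collagen genes 95 were brighter than the controls, 30 not separated and 21 dimmer, with a median of 7.16. A set of 29 reached 12 or more, with col-93, sqt-3 and col-119 at the top, and col-55 was the dimmest at 3.77. The adult collagen col-19 was at 12.80, 12.72, 12.73, 12.72 and 11.52 on replicates 1 to 5, with replicate 5 the lowest. Of 20 hypodermis and cuticle markers 15 were brighter (median 7.50), with 6 at 12 or more and cuti-1 the dimmest at 4.53.

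Receptors and channels of the nervous system and several other large families were mostly at or below the control level. Chemoreceptors of the sr and str families, a very large family known mostly from sensory neurons, were brighter in 53 of 1275 genes (4.16%, against 50.4% of all genes), dimmer in 1073 and not separated in 149, with a median of 4.92. The brightest, sri-40, was at 8.39, 8.62, 8.51, 8.52 and 8.01 on replicates 1 to 5, then srr-4 at 7.93 and srv-1 at 7.56, and srw-119 was the dimmest at 1.74. F-box and MATH proteins, which direct proteins to ubiquitin ligases, were brighter in 83 of 413 genes (20.1%, median 5.22), with bath-42 at 11.24 and fbxa-215 at 11.23 far above the median. Nuclear hormone receptors were brighter in 67 of 254 genes (26.4%, median 5.51), led by nhr-49, a regulator of fat metabolism, at 10.00, and nhr-174 was the dimmest gene measured at 0.92. C-type lectins were brighter in 53 of 220 genes (24.1%, median 5.55), led by clec-87 at 13.05, clec-88 at 12.31 and clec-63 at 12.25. The range of the lectins, from 2.83 for clec-55, was as wide as that of the collagens.

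Ligand-gated ion channels were brighter in 17 of 87 genes (19.5%), led by the acetylcholine receptor family gene acr-23 at 7.73 and the muscle GABA receptor unc-49 at 7.64. The lead of acr-23 rests on replicate 1, with 8.90, 7.51, 7.52, 7.60 and 7.12 on replicates 1 to 5 for acr-23, against 7.76, 7.73, 7.73, 7.64 and 7.34 for unc-49. Of potassium channels 14 of 57 (24.6%) were brighter, led by twk-18, a channel of body wall muscle, at 7.47. Homeobox factors were brighter in 22 of 76 (28.9%), led by ceh-38 at 10.32, and insulin-like peptides in 8 of 24 (33.3%), led by ins-17 at 8.48. Neuropeptide genes of the flp and nlp kind were brighter in 43 of 83 (51.8%), close to the share of all genes. The most intense of them were nlp-36 at 10.58 and nlp-40 at 10.09, of which nlp-40 is known to be released by the intestine and not by neurons. Detoxification families lay between, with cytochromes P450 brighter in 26 of 73 (35.6%), led by cyp-31A2 at 10.57, UDP-glucuronosyltransferases in 32 of 64, led by ugt-22 at 10.42, and glutathione S-transferases in 25 of 45 (55.6%), led by gst-1 at 11.59. Hedgehog-related genes were brighter in 22 of 54 (40.7%), led by grd-3 at 10.55. Antimicrobial peptides of the nlp-29 and cnc kind were brighter in 10 of 22 (45.5%), led by nlp-27 at 8.96. The small peptides of the nspa, nspb and nspe kinds were brighter in 1 of 10, nspa-9 at 7.19, whose call was lost without replicate 1 and without replicate 4.

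Levels differed between chromosomes, and X held few of the brightest genes. In C. elegans germ cells the X chromosome is largely silent, and many genes used by the germ line lie on autosomes. Among X-linked genes 102 of 2351 (4.34%) reached a mean of 10 or more, against 13.7% of autosomal genes, and over the 5 arrays the share was 3.96% to 4.72% on X and 13.3% to 13.8% on autosomes. The X-linked genes that were brighter than the controls had a median of 7.50, below those of chromosomes I (9.17), II (8.84), III (9.15), IV (9.02) and V (8.62). The share of genes brighter than the controls did not follow the same pattern, with 48.7% on X, 34.6% on V, 50.3% on II, 53.6% on IV, 62.7% on I and 65.4% on III. The medians over all genes were 6.29 on X and 5.67 on V, against 7.67 on III and 7.46 on I, so X and the pooled autosomes differed by -0.09 in median. That difference was -1.12 when the dimmest 33% were left out and 0.0161 when probe sets that can share probes were. On chromosome V, 28.2% of the measured genes belong to the chemoreceptor, F-box and MATH, nuclear receptor or C-type lectin families, and without these 4 families its median was 6.10. None of the germ line, oocyte and sperm markers measured lies on X (0 of 34, 0 of 30 and 0 of 24), while 4 of the 5 vitellogenins do. Of all genes with a chromosome 2351 of 17074 lie on X, and other lists also had none there, among them mitochondrial ribosomal proteins (0 of 60) and proteasome subunits (0 of 33).

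The spread between replicates was small for bright genes and depended on which arrays were included. The median SD over probe sets was 0.206 on the log2 scale for all 5 arrays, 0.151 for replicates 1 to 4 and 0.0829 for replicates 2 to 4. Of 5 equal classes of probe sets by level, the dimmest had a median SD over 5 arrays of 0.289 and the brightest 0.0822. The steadiest genes at a mean of 10 or more were ctsa-1.1, rpl-26, ZK858.6, pam-1, rps-17, rpl-23A.2, eef-1B.1 and ucr-2.3, with SDs between 0.0068 and 0.0117. The ribosomal protein gene rps-17 was at 13.32, 13.32, 13.30, 13.31 and 13.31 on replicates 1 to 5, with no array apart. As a list the ribosomal proteins averaged 13.17, 13.15, 13.15, 13.15 and 13.13.

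Replicate 1 stood apart mostly among genes near or below the control level. It lay at least 2-fold above every other replicate for 556 genes (3.25% of all), of which 492 were not brighter than the controls, and at least 2-fold below for 92 (0.537%). The median level of the 556 was 5.33. A far value on replicate 1 widens the spread that the call is tested on, so the call and standing apart are partly tied. Among genes brighter than the controls the counts were 64 of 8632 (0.741%) above and 2 (0.0232%) below. Its controls were also the highest, with a 90th percentile of 6.38 against 5.89 to 6.02 on the other arrays. The guidance receptor gene unc-5 was an example, at 8.57, 6.18, 6.37, 6.13 and 6.32 on replicates 1 to 5, where only replicate 1 is well above the controls, and its call of brighter was lost with quantile normalization and with a robust variance trend. The set of 556 held 51 of 1275 chemoreceptors, 17 of 413 F-box and MATH proteins, 13 of 220 C-type lectins and 11 of 146 collagens, and 427 of its genes were in no list. The set of 92 below held 31 of 1275 chemoreceptors, and 56 of its genes were in no list.

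Replicate 5 differed from the others in several gene groups and in many genes outside the lists. It lay at least 2-fold below each of replicates 1 to 4 for 386 genes (2.25% of all), and 328 of these were brighter than the controls (3.8% of 8632). It lay at least 2-fold above for 75 genes (0.438%), of which 35 were brighter (0.405%) and 40 were not. Of these genes, 286 of the 386 and 51 of the 75 were in no list. These counts describe 1 array against 4 and carry no test, and with 1 array for the replicate its worms, its RNA and its hybridisation cannot be told apart.

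Sperm genes were the lowest group of replicate 5. All 23 major sperm proteins were at least 2-fold lower there than on any other array, although, being near-identical, they are not 23 independent measurements. The mean over these genes was 12.29, 12.37, 12.35, 12.35 and 9.45 on replicates 1 to 5, a difference of -2.89 between replicate 5 and the mean of the others. The brightest, msp-65, was at 12.82, 12.98, 12.89, 12.89 and 10.14, and the dimmest, msp-63, at 10.80, 10.75, 10.87, 10.78 and 7.58. Both stayed above the controls on replicate 5. The sperm-specific family and class P proteins followed, with 11 of 14 at least 2-fold lower and list means of 8.66, 8.58, 8.59, 8.58 and 6.48. In that list nspd-2, a nematode-specific peptide gene, was at 10.95, 10.77, 10.89, 11.01 and 7.60. Of the sperm and spermatogenesis markers 8 of 24 were at least 2-fold lower, with list means of 7.20, 7.16, 7.15, 7.12 and 6.35. These markers include ssp genes such as ssp-10 that the sperm-specific family list also holds, so the counts of these lists overlap. The sperm phosphatase gene gsp-3 was at 8.37, 8.40, 8.45, 8.44 and 5.92. Replicate 5 was at its own control level of 5.90 for gsp-3, while the other arrays were well above theirs. Among genes brighter than the controls, the 10 farthest below on replicate 5 were col-81, col-139, col-129, msd-2, msd-4, spig-20, ZK1248.4, nspd-2, nspd-4 and nsph-3.1.

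Many collagens were also lower on replicate 5 and a few were higher. The gene farthest below was col-81, at 12.36, 12.40, 12.39, 12.39 and 7.95, a difference of -4.43 to the mean of the others, against -4.27 for col-139 and -3.80 for col-129. Replicates 1 to 4 lay close together for col-81. Of the 146 collagens replicate 5 was the lowest for most and the highest for 14, with 23 at least 2-fold below and 5 at least 2-fold above every other array. The list mean was 8.72, 8.30, 8.38, 8.33 and 7.82, and here replicate 1 was also apart, as the highest. Against this trend the collagen dpy-5 was at 6.79, 6.31, 6.61, 6.47 and 9.08, and its call of brighter was lost without replicate 1 and with a robust variance trend. Of the 20 hypodermis and cuticle markers 2 were at least 2-fold below and 6 at least 2-fold above, so the list did not move one way.

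Muscle, neuron and proton pump genes were also lower on replicate 5, by smaller amounts. The muscle markers averaged 9.92, 9.99, 10.02, 9.98 and 9.24 on replicates 1 to 5, with replicate 5 the lowest for 20 of 23 and at least 2-fold lower for 4. The neuron markers averaged 6.90, 6.91, 6.92, 6.90 and 6.52, with replicate 5 the lowest for 18 of 30 and none 2-fold lower than every other array. Subunits of the vacuolar ATPase, the pump that acidifies organelles, averaged 10.84, 10.88, 10.83, 10.87 and 10.45, with replicate 5 the lowest for 16 of 18. Other lists were lower there too, though not all are separate groups of genes. Myosins, paramyosin and troponins share genes such as unc-54 and pat-10 with the muscle markers. They share genes such as tni-4 and tnc-2 with the pharynx markers. The difference to the mean of the others was -0.64 for myosins, paramyosin and troponins (lowest for 21 of 24, 4 at least 2-fold) and -0.47 for methionine cycle enzymes (11 of 14, 3 at least 2-fold). It was -0.40 for neuropeptide genes (50 of 83, 5 at least 2-fold), -0.38 for pharynx markers (10 of 18, 2 at least 2-fold), -0.38 for insulin-like peptides (15 of 24) and -0.30 for glutathione S-transferases (22 of 45, 3 at least 2-fold). Over all genes the array means were between 6.89, on replicate 5, and 7.09, on replicate 1, and replicate 5 was the lowest for 6648 of 17118 and the highest for 3723. In the middle of 5 equal classes of genes by level, with means from 5.87 to 7.10, the median difference was -0.24. In the brightest class it was -0.01. The neuron, pharynx, neuropeptide, insulin-like peptide and glutathione S-transferase lists have medians within that middle class. Their differences are therefore to be read beside -0.24, which genes of that level shared.

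Oocyte and yolk genes were higher on replicate 5. As given above, it was the highest array for 28 of 30 oocyte markers and for 5 of 5 vitellogenins, by 0.25 and 0.26 on the list means, and 0 genes of either list reached a 2-fold difference. The germ line markers differed by 0.04, with replicate 5 the highest for 15 of 34 and the lowest for 10. Proteasome subunits (0.03) and ribosomal proteins (-0.03) differed as little. Among genes brighter than the controls, those farthest above on replicate 5 were dpy-5, tts-1, F41F3.3, irg-2, T12D8.5, Y58A7A.3, clec-190, lgmn-1, clec-222 and F53B2.8. The non-coding RNA tts-1, known to bind ribosomes in long-lived worms, was at 8.08, 8.14, 8.03, 8.19 and 10.38. The legumain-type protease gene lgmn-1 was 1.60 higher than the mean of the others, the C-type lectins clec-190 and clec-222 were 1.65 and 1.59 higher, and irg-2, an infection response gene, was 1.91 higher. Outside that set, sysm-1 was at 6.07, 6.19, 6.34, 6.35 and 9.63, and was not separated from the controls over the 5 arrays (limma adjusted p = 0.107).

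**Figure D3:**
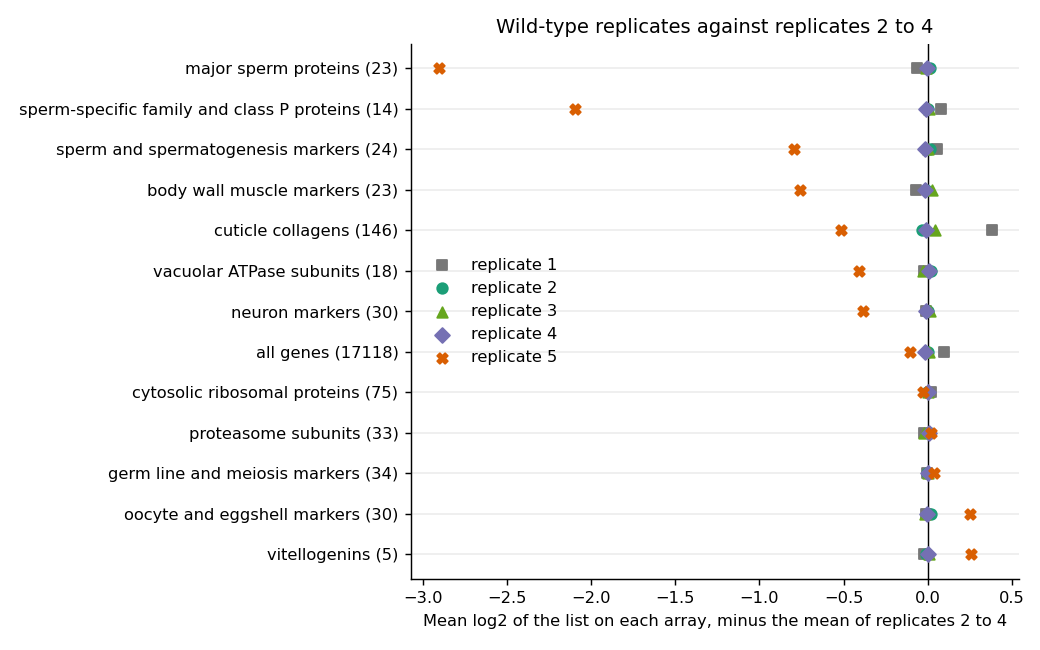
Mean log2 intensity of each gene list on each wild-type array minus its mean on replicates 2 to 4 (horizontal axis), 1 symbol per replicate, with the number of genes in brackets. Replicate 5 lies far to the left for the sperm lists and to the right for oocyte markers and vitellogenins, and replicate 1 lies to the right for collagens.

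**Figure D4:**
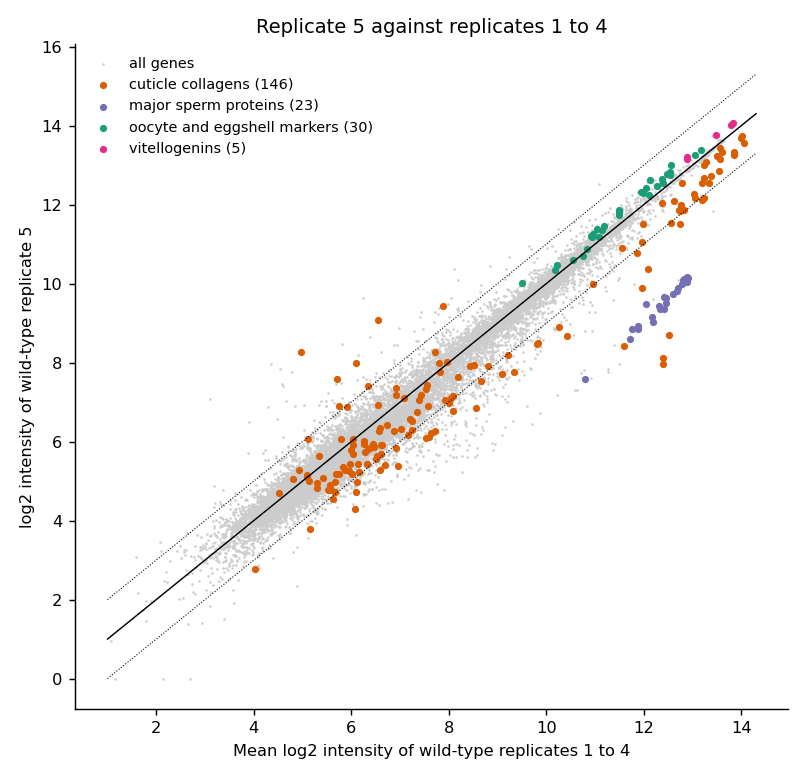
log2 intensity of each of 17118 genes on wild-type replicate 5 (vertical axis) against its mean over replicates 1 to 4 (horizontal axis), with equality as a solid line and 2-fold differences dotted. The 23 major sperm proteins form a separate group below the lower dotted line, several collagens lie there too, and oocyte markers and vitellogenins lie just above equality.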

How the data were processed

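Total RNA of 5 wild-type samples was hybridised, 1 array each, to Affymetrix C. elegans arrays as biotinylated cRNA made from 1 µg, per the labels' protocols. The deposited values are log intensities of probe sets, taken here as log2 from their range. How the authors summarised, normalized and scaled them is not stated in the labels, and the values were used as deposited. Probe sets were named from the platform annotation given for the series and updated through RefSeq (WBcel235), which matched 20701 of 20766 probe sets naming 1 gene. Of the other probe sets, 887 named several genes and 895 none. No sequences were used here. A gene took its brightest probe set on average. Of 2981 genes with several probe sets, the gap between the brightest and dimmest exceeded 1 in 39.2%, and 381 had both a brighter and a dimmer one.

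Each probe set minus its array's 90th percentile of the bacterial controls was tested against 0, 2-sided, by limma's lmFit and eBayes (version 3.58.1, R 4.3.3), with Benjamini-Hochberg adjustment over 22548 probe sets and a threshold of 0.05. On simulated data of 22548 probe sets, 2%, 12%, 62% and 90% of 50 changed probe sets per size were recovered at 0.25, 0.5, 1 and 2 log2, with 5 false calls among 88. Nearly all simulated probe sets had no true difference, and their noise was independent. In the data 50.8% of probe sets were called brighter and 36.5% dimmer, so the simulated rates do not describe the real calls. Lists (11 of tissues or stages and 43 of families) are described by counts and medians. A gene can be in several lists, so their counts are not independent. A replicate stood apart where it was at least 2-fold from every other. Summaries and figures used Python 3.11.15, pandas 2.3.3, numpy 2.4.6 and matplotlib 3.10.9.

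Members and lists were chosen with earlier results of these data known. Genes named are the 30 brightest, the 3 brightest and the dimmest of each list, the 12 of largest SD over all arrays and over replicates 1 to 4, the 10 brighter genes for which replicate 5 was farthest above and below, and the 8 steadiest at 10 or more. The genes col-19, rme-2, unc-54, gsp-3, elt-2 and sysm-1 were chosen after their values were seen. Alternatives changed the normalization, centring, control level, call rule, variance model, array weights, filter on dim probe sets and choice of probe set, or left out replicates. Leaving out replicates 1 and 5 together, and the alternatives for chromosomes, were chosen after seeing the data. The number of arrays limits the precision.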

Additional observations from a re-analysis of the deposited data

Results flagged for a closer look

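Of 51 genes and list means whose values are given array by array, 34 had 1 array far from the other 4, with a gap to the nearest array that was more than 0.71 of the whole range. Chance flags about 1 in 20 groups picked without regard to their values. That rate does not apply to this count, since many of the 51 were chosen for a large spread or for a replicate 5 far from the others, some after their values were seen, and they share arrays and genes.

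Replicate 5 was the far array, and the lowest, for 19. Its list means were 9.45 for major sperm proteins, 6.48 for sperm-specific family and class P proteins, 6.35 for sperm and spermatogenesis markers, 9.24 for body wall muscle, 6.52 for neurons and 10.45 for the vacuolar ATPase. Single sperm genes were msp-65 at 10.14, msp-63 at 7.58, nspd-2 at 7.60 and gsp-3 at 5.925. Collagens were col-93 at 13.566, col-81 at 7.95 and col-19 at 11.52. The others were asp-1 at 13.29, mtl-2 at 12.25, act-5 at 11.20, unc-54 at 10.19, gld-1 at 11.37 and unc-49 at 7.34.

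Replicate 5 was the far array, and the highest, for 13. Its list means were 13.64 for vitellogenins, 11.83 for oocyte and eggshell markers and 10.10 for germ line and meiosis markers, and the last rests on a small spread. Genes of yolk, oocytes and the early embryo were vit-4 at 14.07, cpg-1 at 13.38, rme-2 at 12.635 and pal-1 at 11.21. The others were eef-1A.1 at 13.63, sip-1 at 13.725, mtl-1 at 8.20, dpy-5 at 9.08, tts-1 at 10.38 and sysm-1 at 9.63. Replicate 1 was the far array, as the highest, for unc-5 at 8.57 and acr-23 at 8.90. The causes were not tested.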

How the results depend on the processing

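The level taken as control set the counts. Against the median of the controls 17834 probe sets were brighter and 1543 dimmer, and against the highest control 7589 and 13053. Leaving out 1 replicate gave 11062 to 11986 brighter and 7818 to 8417 dimmer. Without the dimmest 33% of probe sets 866 were dimmer, since fewer dim ones were tested. The median SD was 0.0829 without replicates 1 and 5. Without probe sets that can share probes 10 of the 30 brightest genes remained, and 28 to 29 remained when 1 replicate was left out.

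The X minus autosome median was -1.12 without the dimmest 33%, -0.16 with the mean of a gene's probe sets and 0.0161 without shared probes. The share of genes at 10 or more, X minus autosomes, also moved under these 3 alternatives, without a change of sign. List medians minus that of all genes changed sign without the dimmest 33% for pharynx (-1.05), neuron (-0.46), sperm (-0.19), somatic gonad (-0.40), moult (-0.88), collagens (-0.26), UDP-glucuronosyltransferases (-0.86) and glutathione S-transferases (-0.55), since that filter raises the median of all genes. Without shared probes they changed for neurons (-0.52), tubulins (-0.35) and lysozymes and saposins (-0.0053). Most of the other lists, of 54 in all, moved without a change of sign. Without shared probes 42 were classed as moved and 9 as the same, and without the dimmest 33% the counts were 44 and 2. For neuropeptide genes the value was -0.0137 to 0.0759 with 1 replicate left out and 0.1673 without replicates 1 and 5. Differences to the highest control were negative for unc-5 (-0.65), ife-4 (-0.69), mtl-1 (-0.81), ND5 (-0.84) and cox-10 (-1.32), and to the median control positive for rpl-42 (1.197), pfk-1.2 (0.77) and tba-6 (0.56). The causes of the other changes were not tested. No paired analysis was possible because levels were described within wild type and no groups were compared.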

Other observations

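Probe sets for the ribosomal RNA gene rrn-3.1 varied between arrays in a pattern of their own. The brightest was at 11.81, 10.51, 11.86, 9.55 and 8.79 on replicates 1 to 5, with replicates 1 and 3 high and replicates 4 and 5 low. The other 4 probe sets for rrn-3.1 and the probe set for rrn-3.56 had the same arrays high and low, with SDs between 1.31 and 1.61 over the 6 probe sets. Replicates 2, 3 and 4, which lay close together for most genes, differed from each other here.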
